A study of Homo sapiens with 8 samples.

Results

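The lipid phosphate phosphatases and the lipid phosphatase-related proteins were followed in human neuroblastoma cells in which TRPM7, a cation channel with a kinase domain, was targeted by shRNA. The 8 genes, LPPR1, LPPR2, LPPR3, LPPR4, LPPR5, PPAP2A, PPAP2B and PPAP2C, were found among 31426 symbols and were represented by 18 of the 47322 probes on the arrays. The family was chosen on the log2 difference of LPPR4 in SH-EP2 cells, which was strongly negative with TRPM7 shRNA, so that this decrease is described here and not tested. The other genes were included by family name.

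Biotinylated cRNA made from total RNA was hybridized to HumanHT-12 v4 bead arrays from Illumina. The RNA came from SH-SY5Y, a neuroblastic line, and SH-EP2, an epithelial-like line, which are both derived from the neuroblastoma line SK-N-SH. Each line had been transduced with lentivirus that carried a scrambled shRNA (control) or a TRPM7 shRNA, so that all 4 groups carried a lentiviral shRNA. Every group had 2 arrays. A single TRPM7 shRNA was used on the arrays, and effects of its sequence on other transcripts were not tested here. Outside the arrays, the study repeated its SH-EP2 migration assays with an independent TRPM7 shRNA. Neither the labels nor the study's methods say that replicates were separate cultures, so that p-values measure the spread between these arrays, which may be technical.

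Lipid phosphate phosphatases sit in the plasma membrane with their active site outside the cell. They remove the phosphate from lysophosphatidic acid (LPA), sphingosine 1-phosphate (S1P), phosphatidic acid and ceramide phosphate, and so end signals that these lipids send through G protein-coupled receptors. The related LPPR proteins resemble them but lack residues needed for catalysis. Several are enriched in neurons, where LPPR4 is known to modulate LPA signalling at excitatory synapses and other members shape filopodia and neurites. In current nomenclature LPPR1 to LPPR5 are PLPPR1 to PLPPR5, and PPAP2A, PPAP2B and PPAP2C are PLPP1, PLPP3 and PLPP2.

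The promoters of LPPR4 and PPAP2B are shown because both genes changed in SH-SY5Y cells after TRPM7 knockdown, in opposite directions. This choice was made after their values were seen. Each sequence is the 250 bases before the RefSeq start on GRCh38.p14. The LPPR4 window is chr1:99264242-99264491 on the plus strand. The annotated gene begins 1568 bases upstream of the RefSeq start, so that the window lies within the gene. The PPAP2B window is chr1:56579564-56579813 on the minus strand. Capitals mark GGGCGG on either strand, known as the GC box.
LPPR4: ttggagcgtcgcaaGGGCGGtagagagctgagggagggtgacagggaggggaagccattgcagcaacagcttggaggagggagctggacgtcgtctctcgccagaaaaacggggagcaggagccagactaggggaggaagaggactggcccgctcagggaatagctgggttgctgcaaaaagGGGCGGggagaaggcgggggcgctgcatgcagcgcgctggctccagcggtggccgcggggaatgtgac
PPAP2B: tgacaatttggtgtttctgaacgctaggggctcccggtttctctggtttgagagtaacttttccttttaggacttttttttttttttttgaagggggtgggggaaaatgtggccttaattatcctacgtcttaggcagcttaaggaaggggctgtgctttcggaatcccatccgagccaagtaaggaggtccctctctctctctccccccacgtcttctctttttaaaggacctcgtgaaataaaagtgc
The LPPR4 window held 2 GC boxes and 65.2% G and C, and the PPAP2B window held 0 GC boxes and 46% G and C. Of 35116 RefSeq windows of this length, 42.6% held a GC box, and the median content of G and C was 58%. The E-box CANNTG, searched on both strands, was in neither window and in 61.8% of all windows, and its variant CAGGTG, which overlaps with it, was in 17.5%. LPPR4 lies beside LPPR5 on chromosome 1. The LPPR5 window, on the minus strand, also lies within its annotated gene. It held 6 GC boxes, 79.2% G and C, and 1 E-box, which was the variant CAGGTG. These letters are a description of the windows.

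Between 40.8% and 44.2% of the probes were detected per array, at a detection p under 0.05. Of the 18 probes, 8 probes of 5 genes (LPPR2, LPPR4, PPAP2A, PPAP2B and PPAP2C) were detected on all 8 arrays, and the 3 probes of LPPR1 were detected on none. The single TRPM7 probe was not detected on any array (detection p from 0.0753 to 0.201), so that the knockdown could not be checked on these arrays. Of 11 noradrenergic neuroblastoma markers, 10 were detected on both control arrays in SH-SY5Y and 5 in SH-EP2, and TH, the enzyme that opens catecholamine synthesis, was not detected in any group. Of 11 mesenchymal markers, 11 were detected in SH-EP2 and 7 in SH-SY5Y control cells. Summed over the list, log2 signals of the noradrenergic markers were 110.7 to 111.3 in control and 107.2 to 108.8 in TRPM7 shRNA SH-SY5Y cells. Those of the mesenchymal markers were 118.7 to 119.2 in control and 120.3 to 120.8 in TRPM7 shRNA SH-EP2 cells. The remaining sums overlapped between control and TRPM7 shRNA cells. They were 38.97 to 39.14 and 37.70 to 40.48 for noradrenergic markers in SH-EP2, and 75.34 to 76.77 and 75.55 to 77.21 for mesenchymal markers in SH-SY5Y. These sums do not stand for all genes of a list. Of the mesenchymal markers in SH-EP2, CD44 was higher (0.77, adjusted p = 0.0207), COL1A1 was lower (-0.56, adjusted p = 0.00329), 9 did not pass, and the median difference was 0.03. In SH-SY5Y, 2 of the noradrenergic markers were lower, DBH (-1.20, adjusted p = 0.000637) and ISL1 (-0.45, adjusted p = 0.0144), 9 did not pass, and the median difference was -0.24. Of the mesenchymal markers there, VIM (-0.30, adjusted p = 0.0176) and LGALS1 (-0.36, adjusted p = 0.0205) were lower and 9 did not pass. Of the noradrenergic markers in SH-EP2, CHGB was higher, GATA2 and the undetected CHGA were lower, and 8 did not pass. Over all probes, 1.48% were higher and 1.54% lower in SH-EP2, and 0.807% and 1.3% in SH-SY5Y. The part of these markers in the changes of lipid phosphatases below was not tested. In bulk RNA, fewer cells of a type and less RNA per cell cannot be told apart.

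LPPR4 had opposite changes in the 2 lines. Its brighter probe, ILMN_2172497, had log2 normalized signals of 8.65 and 8.91 in SH-EP2 control cells, and of 5.55 and 5.27 in SH-EP2 TRPM7 shRNA cells. In SH-SY5Y it had 8.06 and 7.72 in control cells, and 8.99 and 8.95 in TRPM7 shRNA cells. The order from high to low was thus SH-SY5Y TRPM7 shRNA, SH-EP2 control, SH-SY5Y control and SH-EP2 TRPM7 shRNA, and no groups overlapped. The means of the highest neighbours, 8.97 and 8.78, lay about as far apart as the SD of SH-EP2 control cells (0.18). The bead signals before normalization, 532 and 562 in SH-EP2 control against 163 and 153 in SH-EP2 TRPM7 shRNA, and 401 and 269 in SH-SY5Y control against 628 and 680 in SH-SY5Y TRPM7 shRNA, had the same directions.

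The second LPPR4 probe, ILMN_1662482, measured 6.39 and 6.44 in SH-EP2 control cells and was not detected on either SH-EP2 TRPM7 shRNA array, where it stood at 2.68 and 2.21. It measured 6.46 and 5.57 in SH-SY5Y control cells and 7.36 and 7.23 in SH-SY5Y TRPM7 shRNA cells. SH-SY5Y control replicate 2 was the lowest SH-SY5Y array for both probes, and on this probe the control arrays of the 2 lines overlapped. Over the 8 arrays the probes correlated with r = 0.99, as a description of arrays that fall into 4 groups.

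In SH-EP2 cells the log2 difference between TRPM7 shRNA and control was -3.37 for ILMN_2172497, which is 10.4-fold lower. For ILMN_1662482, under the background correction used, it was at least 9.46-fold lower, taking the lowest detected signal of each array as the level of the undetected probe. These sizes depend on the background correction. Without one, the log2 difference of ILMN_2172497 was -1.83, and with a correction from the detection p-values (neqc) it was -2.85. Leaving out any 1 array kept the value of -3.37 between -3.51 and -3.22. With neqc the fitted value of ILMN_1662482 was -2.21, so that the bound above holds only for the correction used.

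In SH-SY5Y cells, LPPR4 rose on both probes. The rule that chose the genes did not use the SH-SY5Y values, but it was set with earlier results of these data known. ILMN_2172497 was 2.11-fold higher in TRPM7 shRNA cells (log2 difference 1.08, SE 0.15, 95% interval 0.76 to 1.40, limma adjusted p = 0.000245). ILMN_1662482 was 2.43-fold higher (log2 difference 1.28, SE 0.28, adjusted p = 0.0145). The first call was kept without any single array (log2 difference 0.91 to 1.25, highest adjusted p = 0.00923). The second was lost without SH-SY5Y control replicate 2 (log2 difference 0.84) and without either SH-SY5Y TRPM7 shRNA array (adjusted p up to 0.236). Without the intensity trend in the variance model, the adjusted p was 0.180 and 0.285.

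The difference between the knockdown effects of the lines was -4.45 on the log2 scale for ILMN_2172497, in the direction SH-EP2 minus SH-SY5Y. For ILMN_1662482, with the undetected level set as above and under the background correction used, it was -4.52 or lower, and the fitted value was -5.25. This difference contains the contrast on which the gene was chosen and was not tested. In control cells, LPPR4 was higher in SH-EP2 than in SH-SY5Y by a log2 of 0.89 for ILMN_2172497. For ILMN_1662482 it was 0.40, which without SH-SY5Y control replicate 2 was -0.04.

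**Figure D1:**
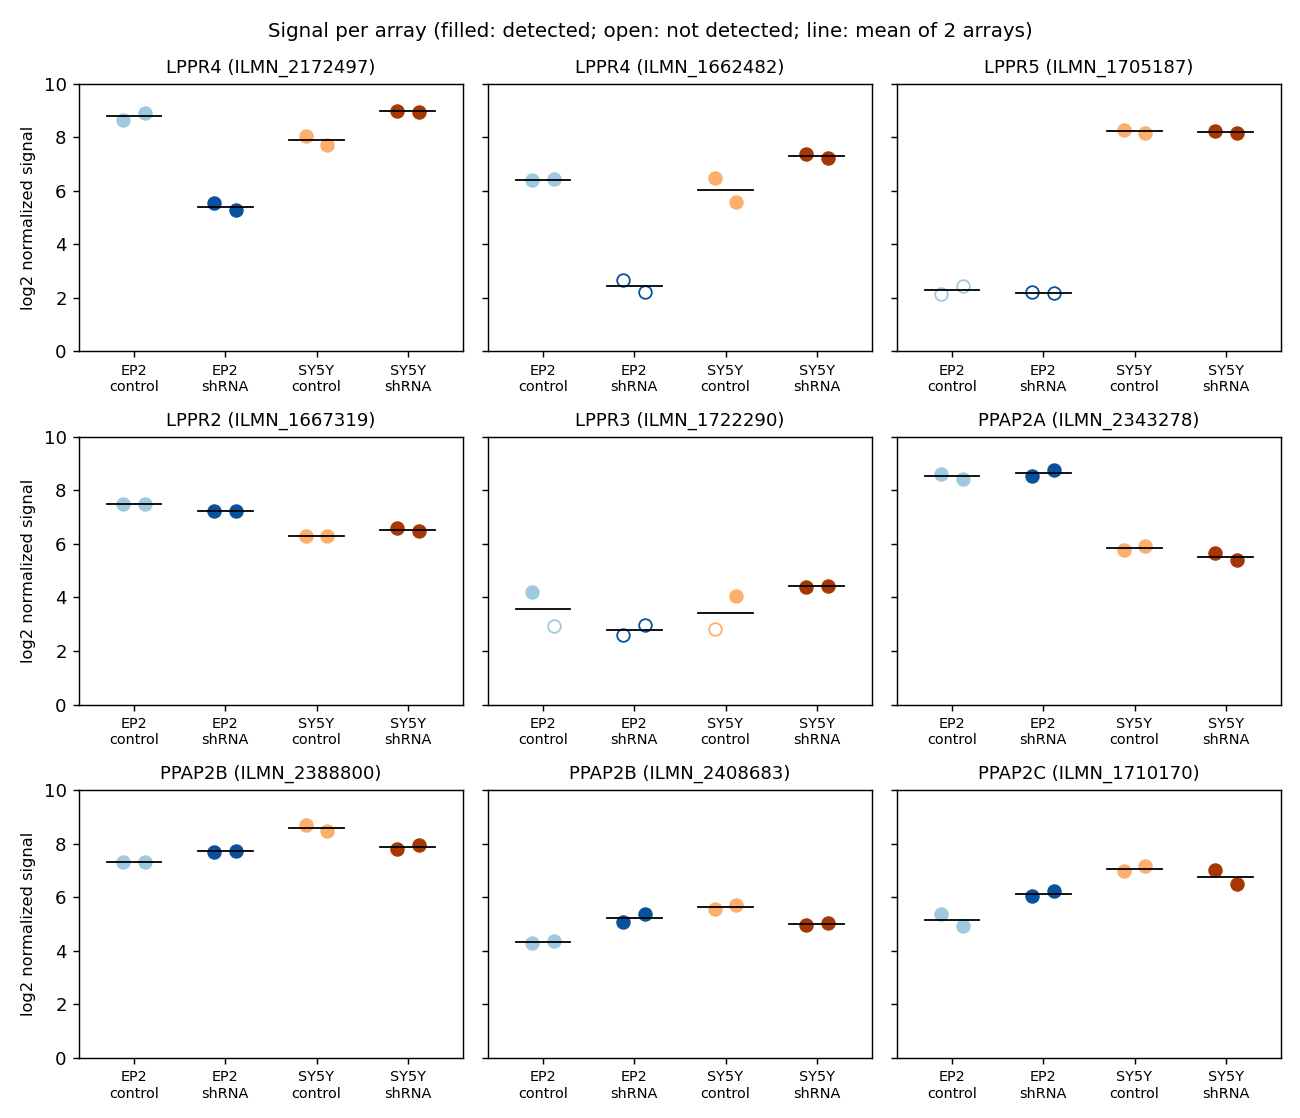
Log2 normalized signal (y axis) of 9 probes on each of the 8 arrays, by group (x axis; EP2 is SH-EP2 and SY5Y is SH-SY5Y); filled points were detected, open points were not, and lines are means of 2 arrays. Both LPPR4 probes were lower in SH-EP2 and higher in SH-SY5Y cells with TRPM7 shRNA, and LPPR5 was detected in SH-SY5Y but not in SH-EP2 cells; the probes were chosen for display after values were seen.

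Of the active phosphatases, PPAP2B changed in SH-SY5Y cells in the direction opposite to LPPR4. PPAP2B is a broadly expressed ecto-enzyme known for degrading LPA and S1P at the cell surface. Its brightest probe, ILMN_2388800, had log2 signals of 8.69 and 8.46 in SH-SY5Y control cells and 7.81 and 7.93 in SH-SY5Y TRPM7 shRNA cells. It stood at 7.32 and 7.31 in SH-EP2 control and at 7.69 and 7.73 in SH-EP2 TRPM7 shRNA cells. The 2 lines were thus closer to each other in TRPM7 shRNA cells than in control cells. These normalized signals did not overlap between groups within a line. The bead signals before normalization did overlap in SH-SY5Y, with 559 and 382 in control and 349 and 402 in TRPM7 shRNA cells. In SH-SY5Y, PPAP2B fell by 0.71 on the log2 scale (SE 0.13, adjusted p = 0.00433), or 1.63-fold. Without SH-SY5Y control replicate 1, and without SH-SY5Y TRPM7 shRNA replicate 1, this call was lost (adjusted p up to 0.0568), and with median scaling in place of quantile normalization the difference was -0.53 (adjusted p = 0.12).

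In SH-EP2 the difference of this PPAP2B probe was 0.39 (adjusted p = 0.146). The second probe, ILMN_2408683, measured 4.29 and 4.37 in SH-EP2 control, 5.07 and 5.36 in SH-EP2 TRPM7 shRNA, 5.54 and 5.70 in SH-SY5Y control, and 4.96 and 5.02 in SH-SY5Y TRPM7 shRNA cells. Its differences, 0.89 in SH-EP2 and -0.63 in SH-SY5Y, had the signs of the first probe and passed in neither line (adjusted p = 0.0845 and 0.342). Its bead signals before normalization also overlapped in SH-SY5Y, with 162 and 145 in control and 150 and 155 in TRPM7 shRNA cells. The dimmest PPAP2B probe, ILMN_1672608, was detected on 1 array, SH-SY5Y control replicate 1.

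The test of the difference between the knockdown effects passed for both brighter PPAP2B probes. It was 1.10 for ILMN_2388800 (SE 0.19, adjusted p = 0.00232) and 1.52 for ILMN_2408683 (SE 0.37, adjusted p = 0.0480), SH-EP2 minus SH-SY5Y. For ILMN_2388800 the call was kept without any single array (0.99 to 1.21), and with median scaling it had an adjusted p of 0.0540. For ILMN_2408683 the call was lost whichever array was left out, with an adjusted p of up to 0.227.

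PPAP2C, which acts on the same lipids and is also found on internal membranes, rose in SH-EP2 cells on ILMN_1710170. On this probe, SH-EP2 control cells had log2 signals of 5.37 and 4.93 and SH-EP2 TRPM7 shRNA cells of 6.03 and 6.21. The SH-SY5Y groups overlapped, with 6.96 and 7.16 in control and 7.0 and 6.50 in TRPM7 shRNA cells. The increase in SH-EP2 was 0.97 (SE 0.22, adjusted p = 0.0136), or 1.96-fold, against -0.31 in SH-SY5Y (adjusted p = 0.661). It was lost without SH-EP2 control replicate 2 and without either SH-EP2 TRPM7 shRNA array (0.75 to 1.19, adjusted p up to 0.202).

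A second PPAP2C probe, ILMN_2405156, had a like difference in SH-EP2 that did not pass. It measured 4.31 and 4.08 in control and 5.0 and 5.30 in TRPM7 shRNA cells, a log2 difference of 0.96 (adjusted p = 0.0707). In SH-SY5Y, where control cells had 7.05 and 6.55 and TRPM7 shRNA cells 5.88 and 6.68, its difference was -0.52 (adjusted p = 0.509). The difference between the knockdown effects was 1.29 for ILMN_1710170 (SE 0.31, adjusted p = 0.0389) and 1.48 for ILMN_2405156 (adjusted p = 0.0687). The former was lost without each of 6 arrays in turn (adjusted p up to 0.193) and with median scaling (adjusted p = 0.124).

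The probes of PPAP2C did not measure alike. ILMN_1675523 was close to the background, with signals of 2.25 and 4.25 in SH-SY5Y control cells. In SH-EP2 it was detected on both arrays of each group, at 4.40 and 4.06 in control and 3.92 and 4.35 in TRPM7 shRNA cells. Its difference in SH-EP2 was -0.09 (limma adjusted p = 0.979), without the positive difference of the other probes. It correlated negatively with the other probes (r = -0.26 and -0.61 over 8 arrays, against 0.90 between those). Why it differs was not tested.

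PPAP2A, the remaining phosphatase, did not pass in either knockdown. On ILMN_2343278 its log2 signals were 8.62 and 8.42 in SH-EP2 control, 8.53 and 8.76 in SH-EP2 TRPM7 shRNA, 5.77 and 5.94 in SH-SY5Y control and 5.65 and 5.39 in SH-SY5Y TRPM7 shRNA cells. The differences were 0.12 in SH-EP2 (95% interval -0.22 to 0.46) and -0.33 in SH-SY5Y (-0.68 to 0.01). The other probes, ILMN_1739161 and ILMN_1676296, gave 0.16 and 0.08 in SH-EP2 and 0.01 and -0.50 in SH-SY5Y.

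LPPR5, a neuronal member that promotes filopodia, also did not pass. ILMN_1705187 measured 8.27 and 8.17 in SH-SY5Y control and 8.24 and 8.16 in SH-SY5Y TRPM7 shRNA cells, and was not detected on any SH-EP2 array. Its difference in SH-SY5Y was -0.02, with a 95% interval from -0.54 to 0.51. The dimmer ILMN_2361742 had 5.13 and 5.21 in control and 4.73 and 4.29 in TRPM7 shRNA SH-SY5Y cells (difference -0.66, adjusted p = 0.670). LPPR5 thus did not pass in the line in which its neighbour LPPR4 rose, and the difference between the 2 genes was not tested.

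LPPR2 was detected in every group with a narrow spread. Its probe, ILMN_1667319, had log2 signals of 7.47 and 7.49 in SH-EP2 control, 7.22 and 7.21 in SH-EP2 TRPM7 shRNA, 6.28 and 6.29 in SH-SY5Y control and 6.58 and 6.47 in SH-SY5Y TRPM7 shRNA cells. The differences were -0.27 (adjusted p = 0.542) and 0.24 (adjusted p = 0.631), and the difference between them was -0.51 (adjusted p = 0.421).

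LPPR3, known from axon growth, was near the limit of detection. Its probe, ILMN_1722290, measured 4.20 and 2.94 in SH-EP2 control, 2.61 and 2.98 in SH-EP2 TRPM7 shRNA, 2.83 and 4.04 in SH-SY5Y control and 4.41 and 4.44 in SH-SY5Y TRPM7 shRNA cells. It was detected on 1 array of each control group, on no SH-EP2 TRPM7 shRNA array and on both SH-SY5Y TRPM7 shRNA arrays. The differences, -0.78 (adjusted p = 0.612) and 0.99 (adjusted p = 0.499), had the signs of LPPR4 and did not pass, and neither did the difference between them (-1.77, adjusted p = 0.382). The probes of LPPR1 (ILMN_1753026, ILMN_1780576 and ILMN_2234930), which induces filopodia in neurons, lay between 1.62 and 2.84 and were not detected on any array, so that a change of LPPR1 was not detectable.

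In SH-EP2, 1 of the 16 tested probes was higher in TRPM7 shRNA cells and 0 were lower with limma (4 and 0 at an unadjusted p under 0.05), while 3.02% of all probes passed, 1.48% higher and 1.54% lower. In SH-SY5Y, 2 of 18 were higher and 1 was lower, where 2.11% of all probes passed, 0.807% higher and 1.3% lower. The median log2 difference over the 18 probes was 0.10 in SH-EP2 and -0.0026 in SH-SY5Y, against 0.0061 and 0.0048 over all probes. The probes of 1 gene share its transcript and are not independent. Without the intensity trend, 0 of the probes passed in either line, and 100 and 64 of all probes did.

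**Figure D2:**
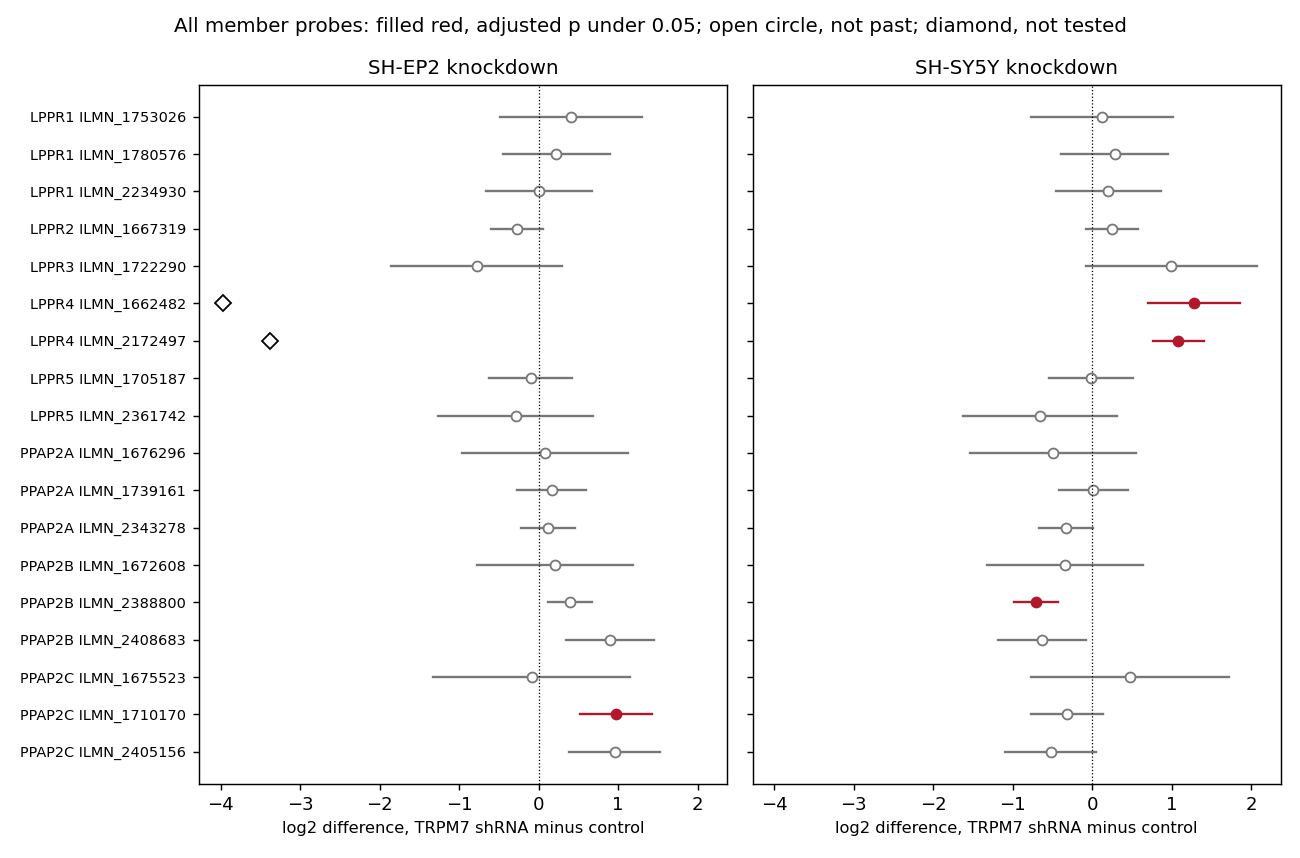
Log2 difference (x axis) between TRPM7 shRNA and control arrays for each of the 18 probes (y axis) in SH-EP2 (left) and SH-SY5Y (right), with 95% intervals from the limma fit; filled red points had an adjusted p under 0.05 and diamonds were not tested. LPPR4 lay at -3.37 and -3.97 in SH-EP2 and at 1.08 and 1.28 in SH-SY5Y; the value of -3.97 involves a probe that was not detected in the TRPM7 shRNA group.

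Between the control cells of the lines the family differed more widely. Here 4 of 16 tested probes were higher in SH-EP2 and 6 were lower, where 26.2% of all probes passed, 12.2% higher and 14% lower. All probes include many that were not detected, so that the shares are unlike. These comparisons share the control arrays with the knockdown comparisons above. The study grew the lines in different media, so that line and medium cannot be told apart in any comparison between the lines. Under the background correction used, LPPR5 was at least 31.8-fold lower in SH-EP2 on ILMN_1705187 (2.29 against 8.22, adjusted p = 1.54e-13). On ILMN_2361742 it was at least 3.83-fold lower (1.59 against 5.17, adjusted p = 3.18e-06).

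PPAP2A was higher in SH-EP2 on all 3 of its probes. The log2 differences were 2.66 for ILMN_2343278 (6.34-fold, adjusted p = 5.55e-11), 3.10 for ILMN_1739161 (adjusted p = 2.29e-10) and 1.52 for ILMN_1676296 (adjusted p = 0.0275). LPPR2 was also higher in SH-EP2, by 1.20 (2.30-fold, adjusted p = 3.68e-06).

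PPAP2B and PPAP2C were lower in SH-EP2 control cells. PPAP2B differed by -1.26 on ILMN_2388800 (2.39-fold, adjusted p = 1.78e-07) and by -1.30 on ILMN_2408683 (adjusted p = 0.000612). PPAP2C differed by -1.91 on ILMN_1710170 (3.76-fold, adjusted p = 5.14e-07) and by -2.61 on ILMN_2405156 (adjusted p = 1.81e-07), while ILMN_1675523 had 0.98 (adjusted p = 0.291). LPPR3 did not pass (0.14, adjusted p = 0.905). Of the 10 calls, 9 held under each alternative, and that of ILMN_1676296 held under 10 of 13.

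The difference between the knockdown effects passed for 3 of 16 tested probes, the 2 of PPAP2B and 1 of PPAP2C above, all 3 with the higher value in SH-EP2, and 0 passed with the lower value (4 and 2 at an unadjusted p under 0.05). Over all probes, 1.4% passed, 0.792% higher and 0.606% lower.

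**Figure D3:**
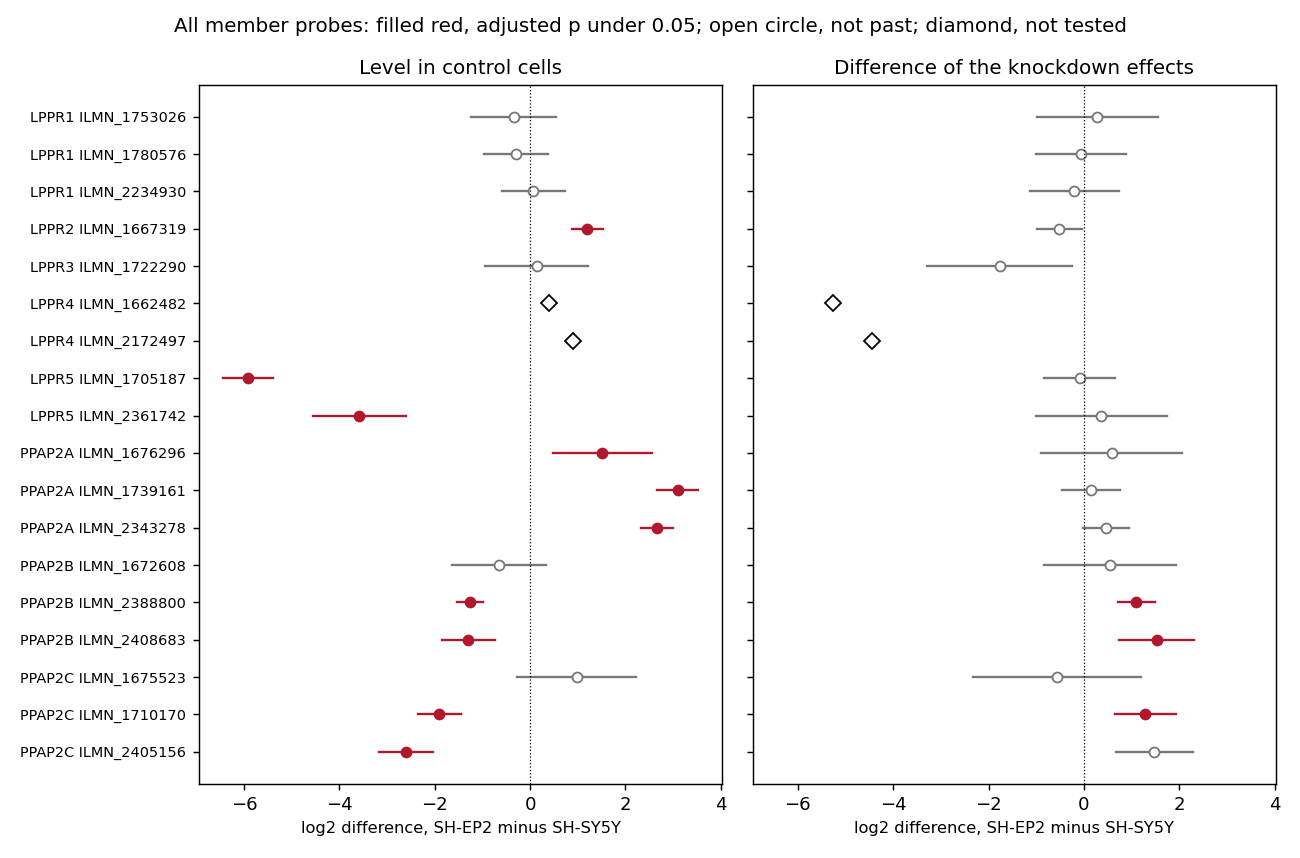
Log2 difference (x axis) between SH-EP2 and SH-SY5Y for each of the 18 probes (y axis), in control cells (left) and as the difference between the knockdown effects (right), with 95% intervals from the limma fit and symbols as in the plot of knockdown differences. LPPR5 lay far to the left and PPAP2A to the right in control cells, and PPAP2B and 1 PPAP2C probe passed on the right side; fitted values of LPPR5 on the left involve groups in which it was not detected.

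The lipids that these proteins handle act through LPA and S1P receptors, so that 49 further genes of the pathway were examined, each by its brightest probe. Of these, 41 were detected on both arrays of some group. In SH-EP2, 2 rose and 2 fell (8.16% of 49), with a median log2 difference of 0.02, and in SH-SY5Y, 1 rose and 1 fell (4.08%), with a median of 0.12. Over all probes, 3.02% passed in SH-EP2 (1.48% higher and 1.54% lower) and 2.11% in SH-SY5Y (0.807% higher and 1.3% lower), and these shares apply to each of the 4 lists below. With 49 genes the difference between the shares rests on a few calls and was not tested. The shares are also unlike, since the 49 genes stand by their brightest probes and all probes include many that were not detected.

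Of the 11 receptors, 1 rose and 1 fell in SH-EP2, and 0 rose and 1 fell in SH-SY5Y with limma (0 and 2 at an unadjusted p under 0.05). LPAR1, the most widely expressed LPA receptor, had log2 signals of 7.0 and 6.87 in SH-EP2 control and 7.50 and 7.59 in SH-EP2 TRPM7 shRNA cells, and of 8.97 and 8.99 in SH-SY5Y control and 8.71 and 8.65 in SH-SY5Y TRPM7 shRNA cells. It rose by 0.61 in SH-EP2 (SE 0.12, adjusted p = 0.00630), with -0.30 in SH-SY5Y (adjusted p = 0.325), and these effects differed by 0.92 (adjusted p = 0.00710). The increase was lost when its 2 probes were averaged (0.43, adjusted p = 0.448), without SH-EP2 control replicate 2 and without SH-EP2 TRPM7 shRNA replicate 2, and the difference between the lines was lost without the latter and with median scaling. The dimmer probe, ILMN_1674984, was not detected in any group, so that the average includes a probe at background.

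S1PR3, a receptor for S1P, fell in both lines. It measured 7.70 and 7.83 in control and 7.05 and 6.89 in TRPM7 shRNA SH-EP2 cells, and 7.66 and 7.60 in control and 6.86 and 7.17 in TRPM7 shRNA SH-SY5Y cells. The decrease was 0.79 in SH-EP2 (log2 difference -0.79, adjusted p = 0.00423) and 0.62 in SH-SY5Y (log2 difference -0.62, adjusted p = 0.0371). In SH-EP2 it was lost without SH-EP2 control replicate 2 and without SH-EP2 TRPM7 shRNA replicate 2, and in SH-SY5Y it was kept under 5 of 16 alternatives and lost in 7 of the 8 fits that left out an array.

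The other receptors did not pass. LPAR2 was detected in every group (0.13 in SH-SY5Y and -0.08 in SH-EP2), and S1PR5 stood higher in SH-EP2 (6.34 in control) than in SH-SY5Y (3.45), a difference that was not tested. LPAR3 was close to the background in all groups (means from 3.70 to 4.03). LPAR4 was detected in SH-EP2 cells and not in SH-SY5Y cells, with means of 5.13 and 5.15 in control and TRPM7 shRNA SH-EP2 cells. LPAR5 was detected in SH-EP2 control cells alone, at 4.69 and 4.32. Under the background correction used, it was at least 2.52-fold lower in SH-EP2 TRPM7 shRNA cells (adjusted p = 0.108, and 0.0469 in the fit of mean values per gene).

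Among 12 enzymes that make LPA or S1P, AGPAT9, which acylates glycerol 3-phosphate, was the only gene that passed. Its signals in SH-EP2 were 3.75 and 2.31 in control and 5.27 and 5.11 in TRPM7 shRNA cells, where 1 of the control arrays was below detection (log2 difference 2.16, adjusted p = 0.0341). Without background correction this difference was 0.34, and the call was lost with median scaling, without SH-EP2 control replicate 2 and without either SH-EP2 TRPM7 shRNA array. None of the 12 passed in SH-SY5Y (0 at an unadjusted p under 0.05).

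Among 16 other enzymes that remove LPA, phosphatidic acid, S1P or ceramide phosphate, AGPAT5, which converts LPA to phosphatidic acid, rose in SH-SY5Y, from 7.68 and 7.80 to 8.34 and 8.29 (log2 difference 0.58, adjusted p = 0.0413). It was kept under 9 of 16 alternatives and lost without any 1 of the 4 SH-SY5Y arrays and without SH-EP2 TRPM7 shRNA replicate 2. In SH-EP2, 0 of the 16 passed with limma (2 higher and 1 lower at an unadjusted p under 0.05), but SGPL1, the S1P lyase, and PPAPDC1A, a related phosphatase, were lower both without background correction (adjusted p = 0.0262 and 0.000791) and with each line alone (adjusted p = 0.0271 and 0.000368). SGPL1 and PPAPDC1A were chosen after their values were seen.

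Of 10 partners of LPA receptors in the RhoA pathway, RHOC, a GTPase of the actin cytoskeleton, fell in SH-EP2, from 12.85 and 12.96 to 12.57 and 12.61 (log2 difference -0.32, adjusted p = 0.0207). Its other probe had -0.12 (adjusted p = 0.629), and the call was lost with the mean of its probes (adjusted p = 0.182), with median scaling and without any 1 of the 4 SH-EP2 arrays. In SH-SY5Y, 0 of the 10 passed with limma (2 higher and 0 lower at an unadjusted p under 0.05). Without the intensity trend, none of the calls of pathway genes was kept.

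**Figure D4:**
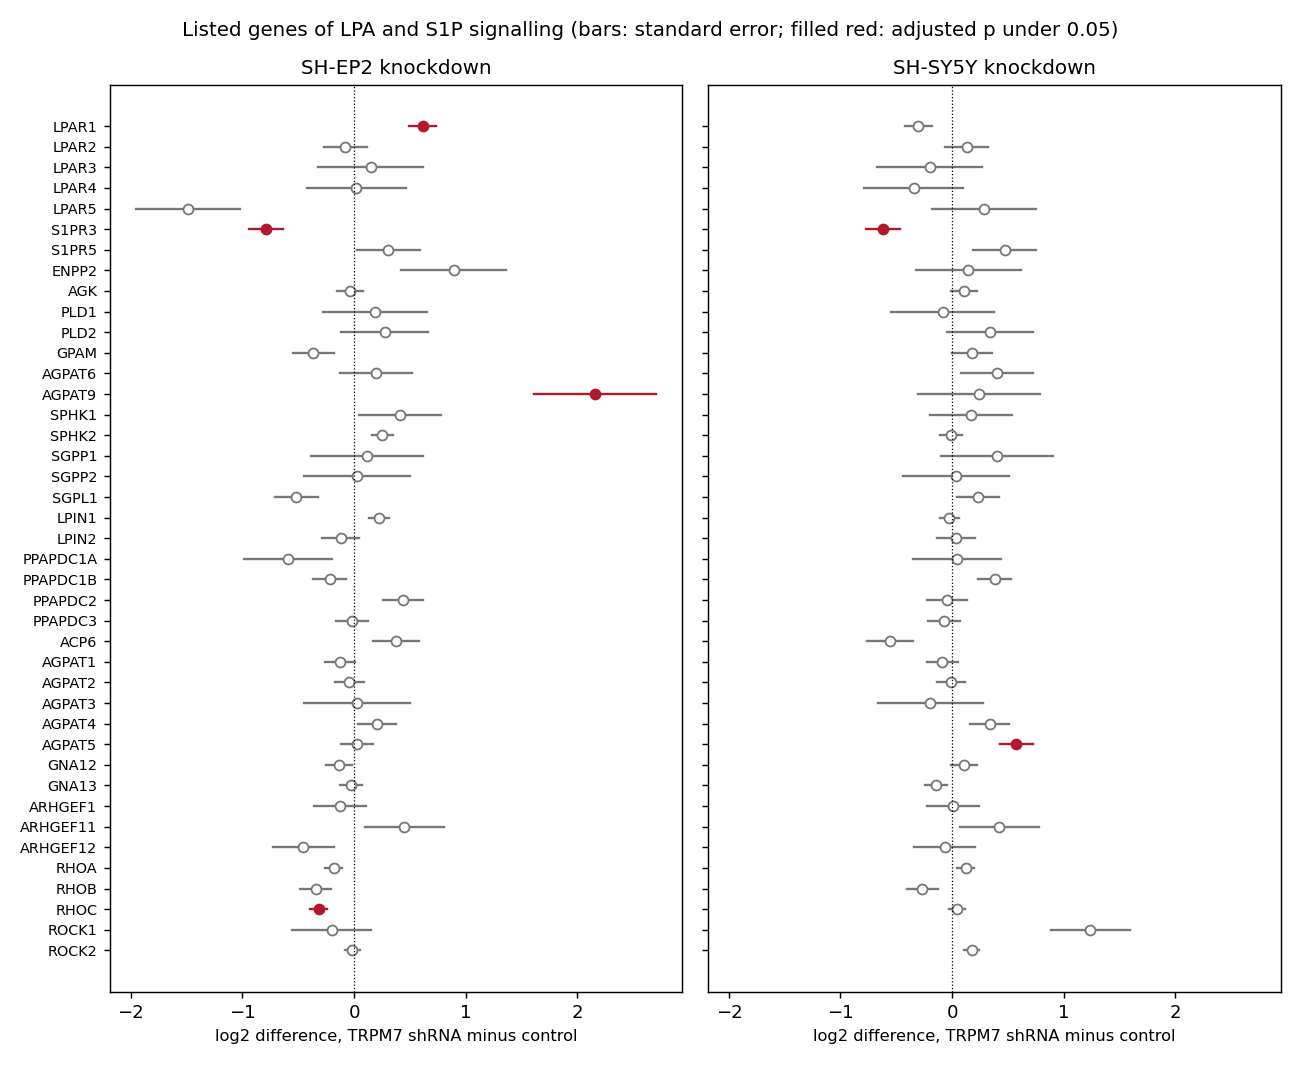
Log2 difference (x axis) between TRPM7 shRNA and control arrays for the 41 pathway genes detected on both arrays of a group (y axis), in SH-EP2 (left) and SH-SY5Y (right); bars are standard errors and filled red points had an adjusted p under 0.05. LPAR1, S1PR3, AGPAT9 and RHOC passed in SH-EP2, and S1PR3 and AGPAT5 in SH-SY5Y.

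Among the genes whose signals followed LPPR4 (ILMN_2172497) most closely over the 8 arrays, out of 22442 probes detected on at least 2 arrays, were DBNDD2 (r = 0.98), GPR180 (0.97), KCTD20 (0.96) and SMYD2 (0.96). These were picked as the highest of many correlations over arrays that fall into 4 groups, and carry no p. Like LPPR4, each had a lower mean in TRPM7 shRNA than in control SH-EP2 cells. Each also had a higher mean in TRPM7 shRNA than in control SH-SY5Y cells. The choice by likeness favours such directions. Their differences were smaller than those of LPPR4. DBNDD2, with the highest r, had -1.01 in SH-EP2 and 0.35 in SH-SY5Y, and the other 3 genes had -0.70 to -0.46 in SH-EP2 and 0.14 to 0.25 in SH-SY5Y.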

How the data were processed

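The deposited table, labelled as not normalized, holds bead intensities that the authors read out with GenomeStudio 2011.1. The intensities are linear, with a lowest value of 80.3 to 91.9 and a median of 104.7 to 119.9 per array. It also holds the detection p-values deposited by the authors, and a probe with a p-value under 0.05 was called detected. The study's methods name Robust-Multi-Array normalization and no test. Here the RMA background model (background 98.3 to 111.1) was applied to the intensities, followed by quantile normalization across 8 arrays and log2, and no probe was filtered out. Signals close to the background carry little information, fold changes depend on the correction, and precision is limited by the number of arrays.

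Arrays were grouped by the cell line and shRNA in their labels. One model with 4 groups was fitted with limma 3.58.1 in R 4.3.3 (lmFit, eBayes with an intensity trend). The two-sided p-values of all 47322 probes were adjusted after Benjamini and Hochberg, with a threshold of 0.05. For a group in which a probe was not detected, a bound used, per array, the higher of the lowest detected signal and the probe's own. Such bounds hold only for the background correction used. Levels of different probes were not compared.

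The genes, lists and tests were chosen with earlier results of these data known. Every probe of the 8 genes is named. Of 4 pathway lists (receptors, enzymes that make LPA or S1P, other enzymes that remove such lipids, RhoA partners), the text names genes with an adjusted p under 0.05 in a knockdown contrast that were also detected on both arrays of whichever group was brighter, and receptors detected on both arrays of any group. The 5 genes most like LPPR4 were found by Pearson's r, and 1 of them is not reported here. Symbols and promoters came from RefSeq tables of GRCh38.p14, in which 6 of the 8 genes had a promoter entry.

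Alternatives were each line alone, median scaling, neqc with an offset of 16, uncorrected signals with a floor of 1, a filter that kept probes detected on 2 or more arrays, no intensity trend in eBayes, the replicate number as a block, the mean over a gene's probes, and each array left out in turn, where a lone array was assumed to vary like the other groups. A crossed block in SH-SY5Y was added after seeing the data. The script was tested on simulated data.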

Additional observations from a re-analysis of the deposited data

Results flagged for a closer look

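The effects of TRPM7 shRNA differed between the cell lines, by the limma test of the difference itself, for PPAP2B on ILMN_2388800 (1.10 on the log2 scale, SH-EP2 minus SH-SY5Y, adjusted p = 0.00232) and on ILMN_2408683 (1.52, adjusted p = 0.0480), for PPAP2C on ILMN_1710170 (1.29, adjusted p = 0.0389) and for the LPA receptor LPAR1 (0.92, adjusted p = 0.00710). For LPPR4, both SH-EP2 TRPM7 shRNA arrays were below and both SH-SY5Y TRPM7 shRNA arrays above the controls of their line. Its effects differed by -4.45 on ILMN_2172497. On ILMN_1662482, which was not detected in SH-EP2 TRPM7 shRNA cells, the fitted value was -5.25. Under the background correction used, the bound from the detection limit was -4.52 or lower. This difference was not tested, since LPPR4 was chosen on one of the contrasts. Groups of 2 arrays were too small for a test of outlying arrays.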

How the results depend on the processing

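Of 24 tested results on single probes that passed, 0 of 350 values under the alternatives had the opposite sign. Of 57 that had not passed, 40 of 861 values had the opposite sign, and 0 of those passed. The 1 sign change of a described value was LPPR4 ILMN_1662482 between control lines (-0.0428 without SH-SY5Y control replicate 2 and 0.8467 without SH-SY5Y control replicate 1, the range over all 8 arrays left out).

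With neqc the decrease of LPPR4 in SH-EP2 was -2.85 on ILMN_2172497 and, as a fitted value with an undetected group, -2.21 on ILMN_1662482, and without background correction it was -1.83 and -0.83. The difference between knockdown effects of PPAP2B ILMN_2408683 was 0.92 with neqc and 0.34 without background correction (adjusted p = 0.0924 and 0.0645), and had an adjusted p of 0.0563 at 1.52 with detected probes only. Without background correction, 1248 probes in all passed for the difference between effects, against 662.

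With median scaling the pathway genes that passed were 2 in SH-EP2 and 1 in SH-SY5Y, and PPAP2B ILMN_2388800 in SH-SY5Y was at -0.53. For the difference between effects, 0 of the 16 tested probes passed (PPAP2B 0.94 and 1.35, PPAP2C 1.13, adjusted p = 0.0540, 0.145 and 0.124). Median scaling moved the median of probes detected on all arrays in SH-SY5Y from 0.0107 to 0.153, and the share of higher among all called probes from 38.2% to 66.1%. The differences of SH-SY5Y are relative to that shift.

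Without the intensity trend, 0 tested probes passed in SH-EP2 (of 16), in SH-SY5Y (of 18) and for the difference between effects (of 16). Of all probes, 100, 64 and 23 passed (1429, 999 and 662 with the trend). LPPR4 in SH-SY5Y (1.28 and 1.08, adjusted p = 0.285 and 0.180), PPAP2C in SH-EP2 (0.97, 0.243), PPAP2B in SH-SY5Y (-0.71, 0.265) and the differences between effects of PPAP2B (1.10, 0.244, and 1.52, 0.147) and PPAP2C (1.29, 0.361) were then not past, and 0 pathway genes passed in either line. With each line alone, 2587 probes passed in SH-EP2, and 1 pathway gene did in SH-SY5Y. With the mean over a gene's probes, the receptors that passed in SH-EP2 were 0 higher and 2 lower, and 0 RhoA partners passed there. The 16 enzymes that remove these lipids had 2 lower in SH-EP2 with each line alone and without background correction. The cause of these changes was not tested.

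The labels number the replicates, but deviations of same-numbered arrays did not correlate in SH-EP2 (r = -0.0045 over 14577 probes) and had r = -0.111 in SH-SY5Y, so that the numbers were not taken as pairing. With the replicate number as a block, 0 pathway genes passed in SH-SY5Y, and 1 of the 16 tested probes did for the difference between effects. There PPAP2B ILMN_2408683 (1.52, adjusted p = 0.0884) and PPAP2C (1.29, adjusted p = 0.0727) were lost. A crossed block in SH-SY5Y, chosen after seeing the data, gave 2 of the 16 tested probes in SH-EP2 and 1000 probes in all for the difference between effects.

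The 2 LPPR4 probes were tested only in SH-SY5Y, so that the other comparisons had 16 tested probes. With each array left out in turn, 0 to 2 of 16 passed in SH-EP2 and 1 to 3 of 18 in SH-SY5Y. Between control lines 9 to 10 of 16 passed, and for the difference between effects 1 to 2 of 16. Of all probes, 675 to 1596, 622 to 958, 10631 to 12394 and 399 to 650 passed, and of the pathway genes 0 to 4 in SH-EP2 and 0 to 2 in SH-SY5Y. Log2 differences were 0.84 to 1.73 (LPPR4 ILMN_1662482) and 0.91 to 1.25 (ILMN_2172497) in SH-SY5Y, -3.51 to -3.22 for ILMN_2172497 in SH-EP2, 0.75 to 1.19 for PPAP2C in SH-EP2, -0.82 to -0.59 for PPAP2B in SH-SY5Y, and for the difference between effects 0.99 to 1.21 and 1.39 to 1.68 (PPAP2B) and 1.04 to 1.54 (PPAP2C).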
